A study of Sus scrofa with 12 samples.

Results

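The genes described here encode the proteins of the cytosolic ribosome, measured in the liver of 12 pigs. Members were the genes whose symbol starts with RPL or RPS followed by a digit, with RPSA and RPLP0 to RPLP2 added and the RPS6K kinases left out. Only probe sets annotated with 1 gene symbol were used, and each gene was represented by the brightest of its probe sets, judged by the mean of all 12 arrays. The rule gave 64 genes out of 6765 symbols on the array, and these 64 genes had 96 probe sets. Of the 64, 62 were kept by the filter on dim probe sets, out of 5810 genes kept in all.

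Liver RNA of adult German Landrace pigs was measured on Affymetrix porcine arrays, and each of the 12 animals had its own. The labels give 2 crossed factors, stress response and aggressiveness, and do not say how either was scored. The 4 groups held 3 animals each: high stress response with high aggressiveness (high-high), high stress response with low aggressiveness (high-low), low stress response with high aggressiveness (low-high), and low stress response with low aggressiveness (low-low). Each group had 2 males and 1 female, and all animals were of the same breed. No treatment, exact age or pooling is given in the labels. The series addresses how psychosocial stress shows in liver transcripts, and the comparisons below ask whether the ribosomal protein mRNAs differ between the groups.

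A cytosolic ribosome has a large and a small subunit, each built from ribosomal RNA and many small proteins, most of them present once per ribosome. The mRNAs of these proteins are among the most abundant in most cells, and their translation is controlled together through a pyrimidine tract at their start, which answers to mTOR signalling. In liver, ribosomes serve the synthesis of plasma proteins, and ribosome output is known to follow feeding and growth. Some ribosomal proteins have further roles: RPL5, RPL11 and RPL23 bind MDM2 and so restrain the degradation of p53 when ribosome assembly fails, RPS6 is the classic substrate of the S6 kinases, and RPSA is also known as a laminin receptor.

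The large subunit was represented by 31 genes: RPL3, RPL4, RPL5, RPL6, RPL7, RPL8, RPL9, RPL10A, RPL11, RPL12, RPL13, RPL13A, RPL14, RPL15, RPL17, RPL19, RPL21, RPL22, RPL23, RPL24, RPL26, RPL27, RPL27A, RPL29, RPL30, RPL31, RPL32, RPL34, RPL35, RPL37 and RPL38. The P stalk, the arm of the large subunit that recruits elongation factors, was represented by RPLP0, RPLP1 and RPLP2. The small subunit was represented by 24 genes: RPS2, RPS3A, RPS4X, RPS6, RPS9, RPS10, RPS12, RPS13, RPS15, RPS15A, RPS16, RPS18, RPS19, RPS20, RPS21, RPS23, RPS24, RPS25, RPS26, RPS27, RPS27A, RPS28, RPS29 and RPSA. The other 6 names of this form belong to the paralogs RPL7L1, RPL22L1, RPL26L1, RPL36AL and RPS27L, and to RPS19BP1, which binds RPS19 and is no ribosomal protein. The 58 genes of the first 3 classes are called structural here.

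Albumin, apolipoprotein A1, transthyretin and alpha-1-antitrypsin, which hepatocytes secrete, were bright on every array, with signals of 35648 to 61125 for ALB and 45963 to 66150 for APOA1. Median signals per array ran from 92.7 to 116.8, and correlations between arrays over log2 signals were 0.947 to 0.970. The lowest median correlations with the other arrays were those of high-high 3 (0.954), low-high 3 (0.955) and high-low 3 (0.956). Medians of the members without these arrays are given for the comparisons they move. The number of arrays limits the precision. In whole liver, fewer cells of a type and less RNA per cell cannot be told apart. The labels do not say whether animals shared a litter or pen, so p-values measure the spread between these 12 animals.

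The ribosomal protein genes moved together from animal to animal. Over the 12 arrays, the log2 signals of pairs of the 56 kept structural genes had a mean correlation of 0.54 and a median of 0.62, and 91.6% of the 1540 pairs lay above 0. The mean over all probe sets tested was 0.019, and that over 423 other probe sets with a mean signal of 10000 or above was 0.14. This limit was chosen after the data were seen because 56 of the 64 members lie above it. These correlations are descriptive: all pairs share the same 12 animals, arrays and array scaling. The genes also varied little, with a median standard deviation (SD) of log2 signals over the 12 arrays of 0.107, against 0.176 for the other bright probe sets and 0.319 for all probe sets tested. The other bright probe sets were not matched in brightness: their median signal was 18118, against 28194 for the structural genes. They also include FAU and RACK1, ribosomal proteins whose names fall outside the rule.

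**Figure D1:**
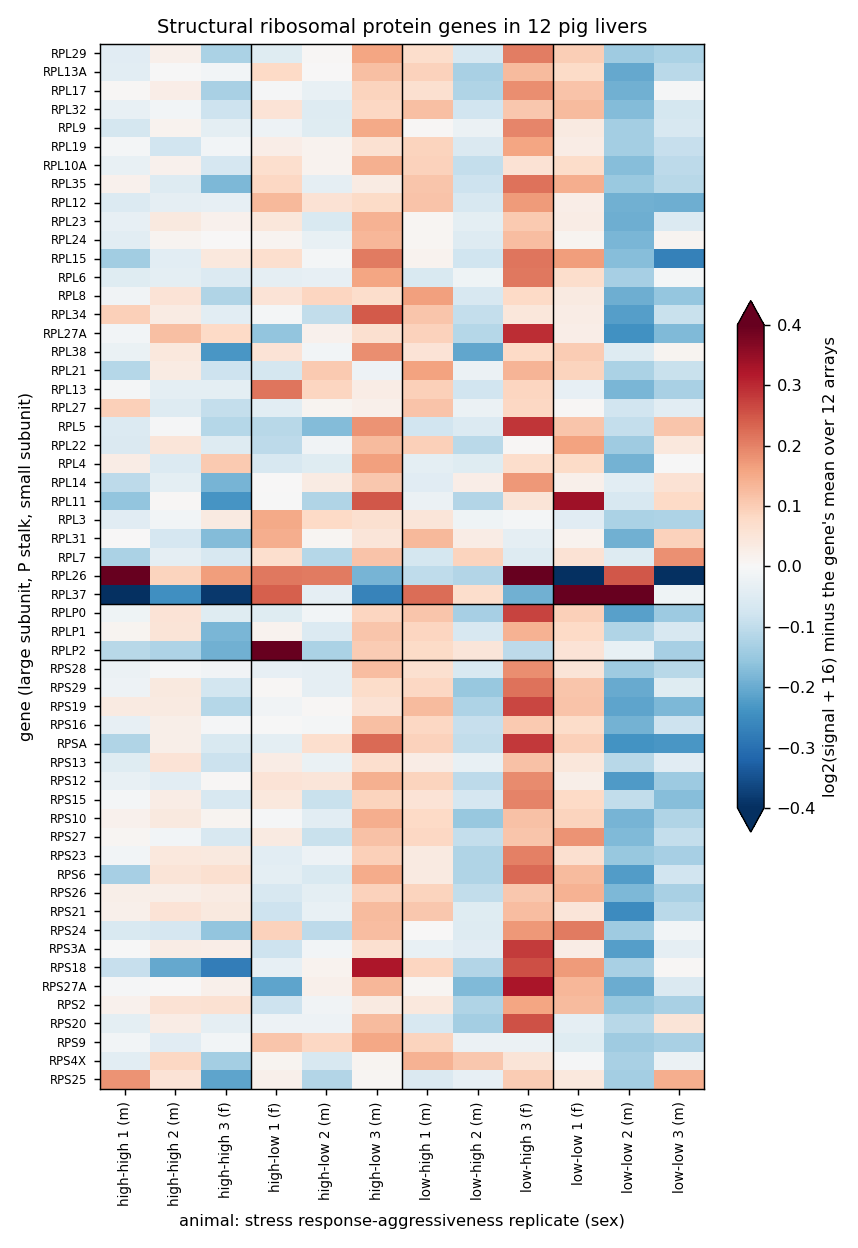
Heat map of the 56 kept structural genes (rows, grouped as large subunit, P stalk and small subunit, and ordered within each class by likeness to the other genes) in 12 animals (columns, ordered high-high, high-low, low-high and low-low). Colour gives log2(signal + 16) minus the mean of the gene over the 12 arrays. Most rows are red in low-high 3 and high-low 3 and blue in low-low 2, while RPL37, RPL26, RPL7 and RPLP2 are least like the other genes.

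Genes differed in how closely they followed the rest. The correlation of a gene with the mean of the other 55 was highest for RPS28 (0.95), RPL29 (0.95), RPS29 (0.94), RPLP0 (0.94) and RPS19 (0.93), over 12 arrays. It was lowest for RPL37 (-0.25), RPL26 (-0.12), RPL7 (-0.026), RPLP2 (0.19) and RPS25 (0.33). RPL37 and RPL26 were also the only 2 of the 56 whose counted probe set had a mean signal below 10000 (644 and 63.3). Whether their low correlations belong to the genes or to these probe sets was not tested. The heat map of single genes shows both kinds.

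A score per animal, the mean over the 56 structural genes of the log2 value minus that gene's mean, shows the shared part. It was -0.019, 0.00055 and -0.063 in the high-high pigs, 0.021, -0.017 and 0.10 in the high-low pigs, 0.057, -0.069 and 0.15 in the low-high pigs and 0.054, -0.14 and -0.078 in the low-low pigs. The highest animals, low-high 3 and high-low 3, belong to different groups, the lowest was low-low 2, and the 4 groups overlapped. In low-high 3, 50 of the 56 structural genes lay above their own mean, in high-low 3 it was 53, and in low-low 2 it was 2. Group means were -0.027 ± 0.033 in high-high, 0.035 ± 0.060 in high-low, 0.046 ± 0.11 in low-high and -0.054 ± 0.098 in low-low pigs (SD, n = 3 each). Each group mean lay within the SD of its own animals from 0.

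The large and small subunits gave nearly the same picture. In low-high 3 the large subunit score was 0.13 and the small subunit score 0.18, in high-low 3 they were 0.091 and 0.11, and in low-low 2 they were -0.11 and -0.17. The score of 58 mitochondrial ribosomal protein genes was -0.10 in low-high 3, -0.026 in high-low 3 and 0.083 in low-low 2, so in these animals it lay on the other side of 0. The overall signal of the arrays moved with the cytosolic score at its ends: the median signal was highest in low-high 3 (116.8) and high-low 3 (113.8) and lowest in low-low 2 (92.7). Its part in the score was not tested.

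**Figure D2:**
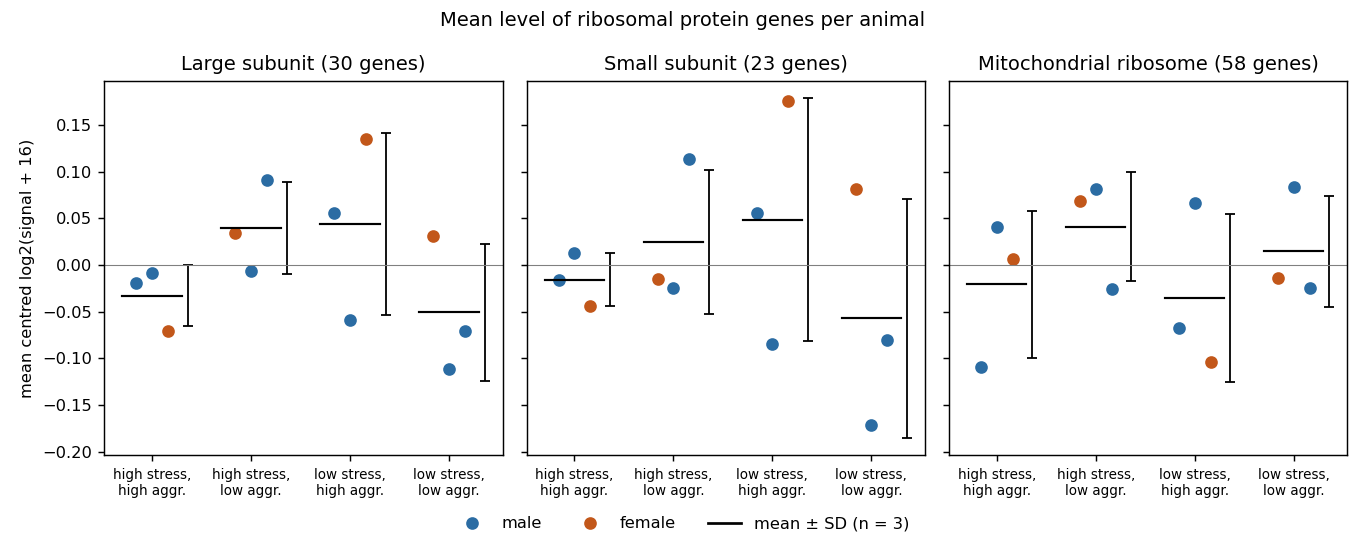
Mean centred log2(signal + 16) per animal (points, males blue, females orange) for 30 genes of the large subunit, 23 of the small subunit and 58 of the mitochondrial ribosome, with the mean and SD of each group of 3. In the small subunit panel all groups overlap, in the large subunit panel the high-high animals lie just below the high-low animals, and low-high 3 is highest in both (0.13 and 0.18).

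Stress response was compared over 6 animals with high and 6 with low stress response, with aggressiveness and sex in the model. None of the 62 members passed at an adjusted p under 0.05 by limma with Benjamini-Hochberg adjustment over all probe sets tested, and 0% of all probe sets did. At an unadjusted p under 0.05 there were 2 members, RPL7L1 higher and RPL37 lower, against 8.16% of all probe sets, and without high-high 3 and high-low 3 there were 0. Fold changes are on the scale of log2(signal + 16). Of the 62 members, 36 had a log2 fold change above 0, as had 55.7% of all probe sets. The median was 0.0045 for the members, 0.028 for all probe sets and -0.024 for the other bright probe sets. For 60 of the 62 members the 95% interval lay inside 0.5 on either side of 0, a limit chosen after the data were seen, and the exceptions were RPL26 and RPL37. The median standard error (SE) of a member was 0.11.

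The median and the sign count depend on how arrays are put on one scale. Under median centring the median was -0.040 with 14 members above 0, and under quantile normalization 38 members lay above 0. In males alone the median was 0.082 with 54 above 0, and with 1 animal left out it ran from -0.024 to 0.039.

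The same model compared 6 animals with high and 6 with low aggressiveness. None of the 62 members passed, nor did any probe set (0%), and RPL37 was the 1 member with an unadjusted p under 0.05, against 3.22% of all probe sets. Above 0 were 45 of 62 members, against 52% of all probe sets, and 16 members under quantile normalization, where the median turned to -0.023. With 1 animal left out the median ran from -0.0066 to 0.055, and without low-high 3 it was -0.0033 with 27 above 0. Without high-high 3 and high-low 3 it was 0.082 with 54 above 0. As deposited, the median was 0.024 for the members, 0.0075 for all probe sets and 0.044 for the other bright probe sets. The small subunit had 20 of 23 genes above 0 with a median of 0.040, and the large subunit 19 of 30 with a median of 0.010. The EF1A control of RNA quality separated the levels of this factor, and the hepatocyte markers shared a sign. The log2 ratio of the 3' to the 5' signal of EF1A was 0.891 ± 0.088 (SD) over the 6 animals with high aggressiveness. Over the 6 with low it was 0.721 ± 0.026 (SD), and the levels did not overlap. For the GAPDH control the ratios were 0.830 ± 0.159 at high and 0.785 ± 0.120 at low aggressiveness (SD). For the actin control they were 5.07 ± 0.23 and 5.03 ± 0.32 (SD), and in both controls the levels overlapped. The member median was 0.011 once the ratio averaged over EF1A, GAPDH and actin entered the model. This mean ratio was 2.26 ± 0.10 (SD) at high and 2.18 ± 0.11 (SD) at low aggressiveness, and the levels overlapped. The EF1A ratio alone was not entered. All 12 measured hepatocyte markers, of 13 listed, lay above 0, with a median of 0.13 and none past the test. Of the 423 other bright probe sets 301 lay above 0. Among other markers, 8 of 10 of T and NK cells (median 0.14) and 1 of 4 of cholangiocytes (-0.46) lay above 0. The summed signal of the hepatocyte markers ran from 493953 to 512397 in high-high and 443506 to 516989 in high-low pigs. In low-high pigs it ran from 437575 to 607354 and in low-low pigs from 400281 to 526533. Scalings other than the deposited one were not run for the marker lists. The part of RNA quality or of cell types in the member values was not tested.

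**Figure D3:**
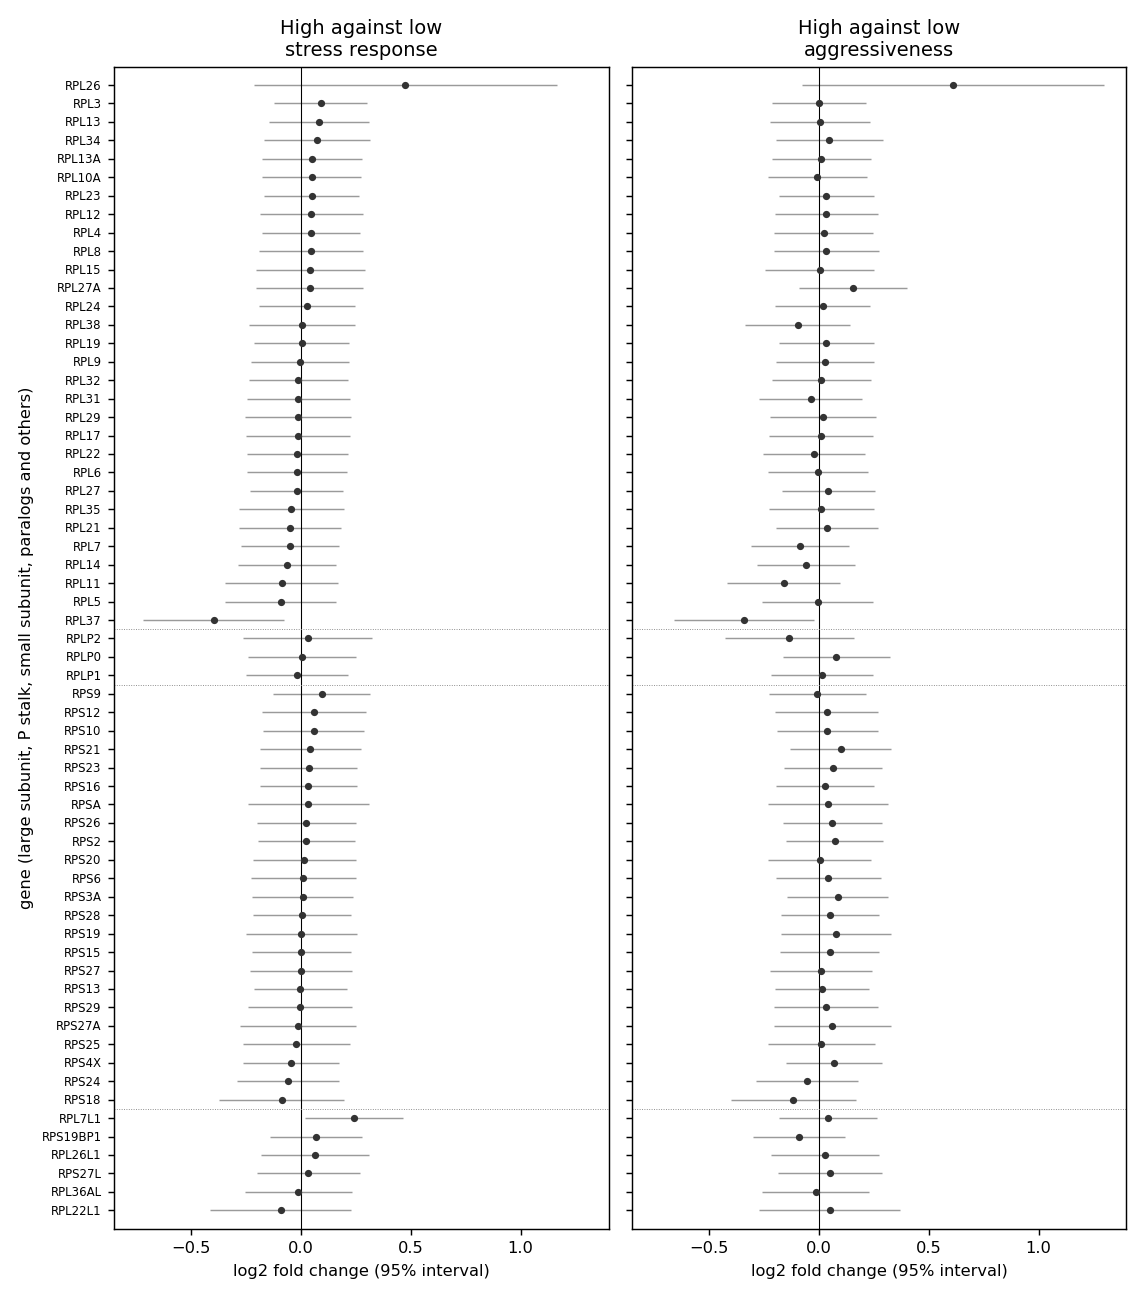
Log2 fold changes of the 62 kept members (points) with 95% intervals (bars) for high against low stress response (left) and high against low aggressiveness (right), grouped as large subunit, P stalk, small subunit, and paralogs and others. Most points lie close to 0 with intervals that include it; RPL37 lies at -0.40 and -0.34, and RPL7L1 at 0.24 for stress response.

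Among genes of the large subunit, RPL37, a small zinc-binding protein, had the smallest p in both factors. The probe set counted for it had a mean signal of 644. Among the further kept probe sets of members, the 24 below 10000 had a median correlation of 0.094 with the counted one. Whether the RPL37 probe set follows its gene was not tested. Its signals were 439.5, 526 and 476 in the high-high pigs, 743, 611 and 518 in the high-low pigs, 735, 659.7 and 547 in the low-high pigs and 917, 940.3 and 619.6 in the low-low pigs. All high-high animals lay below all low-high and all low-low animals, while the high-low animals overlapped with each of the other groups. The log2 fold change was -0.40 ± 0.15 (SE, adjusted p = 0.563) for stress response and -0.34 ± 0.15 (SE, adjusted p = 1.00) for aggressiveness. Each level of stress response and of aggressiveness overlapped the other. In every alternative both stayed below 0, from -0.48 to -0.33 for stress response and from -0.43 to -0.17 for aggressiveness, and none passed the adjusted threshold.

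RPL26, which sits at the exit of the nascent chain and is modified by UFM1, had signals of 123, 61.3 and 65.7 in the high-high pigs, 68.1, 67.9 and 48.0 in the high-low pigs, 51.7, 51.0 and 116 in the low-high pigs and 7.72, 70.3 and 28.9 in the low-low pigs. The filter kept probe sets down to a mean signal of 40.58, so these values lie near its limit. High-high 1 and low-high 3 were high and low-low 1 low, and the groups overlapped. Its log2 fold changes were 0.48 ± 0.31 (SE, adjusted p = 0.723) for stress response and 0.61 ± 0.31 (SE, adjusted p = 1.00) for aggressiveness, and without low-low 1 these were 0.20 and 0.33.

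RPL5 and RPL11 join the small ribosomal RNA of the large subunit in one particle. RPL11 signals ran from 26192 to 31954 with a median of 29390.2 at high aggressiveness, against 28403 to 39060.5 with a median of 31695 at low aggressiveness. The levels overlapped, with the highest value in low-low 1 and the lowest in high-high 3. The log2 fold change was -0.16 ± 0.12 (SE, adjusted p = 1.00) for aggressiveness and -0.088 ± 0.12 (SE) for stress response. RPL5 signals ran from 25690.3 to 32844 with a median of 27382 at high stress response, against 27134 to 35352 with a median of 29616 at low stress response. The levels overlapped and the log2 fold change was -0.094 ± 0.12 (SE), against -0.0068 ± 0.12 (SE) for aggressiveness.

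RPL3, which reaches into the peptidyl transferase centre, had signals from 17156 to 19705 with a median of 18335 at high stress response, against 16222 to 18336 with a median of 17349 at low stress response. The ranges overlapped, and the log2 fold change was 0.09 ± 0.10 (SE, adjusted p = 0.859). RPL13, a large subunit protein, had 0.081 ± 0.10 (SE) for stress response, with mean signals of 14368 ± 1000.5 (SD) over the 6 animals with high stress response and 13592 ± 1068 (SD) over the 6 with low. RPL27A, also of the large subunit, had the smallest p for aggressiveness among higher members after RPL26, with signals from 34574 to 45864 with a median of 39709 at high aggressiveness, against 31618 to 39126 with a median of 35684 at low aggressiveness. The highest was low-high 3 and the levels overlapped, with a log2 fold change of 0.15 ± 0.11 (SE, adjusted p = 1.00). Leaving out RPL26 and RPL37, the structural genes of all 3 classes ran from -0.094 (RPL5) to 0.093 (RPS9) for stress response and from -0.16 (RPL11) to 0.15 (RPL27A) for aggressiveness.

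In the P stalk, RPLP0 anchors the dimers of RPLP1 and RPLP2. RPLP0 signals were 35131, 36908 and 34362 in the high-high pigs, 34405, 35305 and 37752 in the high-low pigs, 38434, 32456 and 42939 in the low-high pigs and 38024, 30611 and 32133 in the low-low pigs. Low-high 3 was highest and low-low 2 lowest, and the groups overlapped. The log2 fold change was 0.0047 ± 0.11 (SE) for stress response and 0.079 ± 0.11 (SE) for aggressiveness. RPLP1 had -0.017 ± 0.11 and 0.013 ± 0.11 (SE) for the same factors. RPLP2 signals were 13013, 12901 and 12301 in the high-high pigs, 20519.6, 12876 and 15094 in the high-low pigs, 14829.9, 14559.7 and 13088 in the low-high pigs and 14598, 13784 and 12819 in the low-low pigs. High-low 1 stood far above all other animals. For RPLP2 the log2 fold change was -0.14 ± 0.13 (SE) for aggressiveness and -0.026 without high-low 1. For stress response it was 0.029 ± 0.13 (SE), and -0.081 without high-low 1.

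Among genes of the small subunit, RPS9, an early binder of the small subunit RNA, had signals from 20010.5 to 22985 with a median of 21175 at high stress response, against 18696 to 21957 with a median of 20136 at low stress response. The levels overlapped, and the log2 fold change was 0.093 ± 0.10 (SE, adjusted p = 0.859). RPS18, a protein of the head of the subunit, had -0.089 ± 0.13 (SE) for stress response and -0.12 ± 0.13 (SE) for aggressiveness, with signals of 28952, 26808 and 25456 in the high-high pigs, 30168, 31199 and 38609 in the high-low pigs, 32731, 28438 and 36887 in the low-high pigs and 34733, 28187 and 30957 in the low-low pigs. High-low 3 and low-high 3 were highest and high-high 3 was lowest. In this probe set all high-high animals lay below all high-low animals, a split whose share over all probe sets was not counted. Its other 2 probe sets, both with a mean signal of 10000 or above, had 0.057 ± 0.10 and 0.088 ± 0.10 (SE) for stress response. These were opposite in sign to the one counted. For aggressiveness the same 2 had 0.041 ± 0.10 and -0.047 ± 0.10 (SE). RPS21 and RPS3A, both structural, had 0.10 ± 0.10 and 0.086 ± 0.10 (SE) for aggressiveness.

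RPS6, the S6 kinase substrate, had signals of 24574, 27940.1 and 28178 in the high-high pigs, 26249, 25835 and 29876 in the high-low pigs, 27622, 24816 and 31513 in the low-high pigs and 29456, 23059.8 and 25548 in the low-low pigs. Low-high 3 was highest, low-low 2 lowest, and the groups overlapped. Its log2 fold change was 0.011 ± 0.11 (SE) for stress response and 0.042 ± 0.11 (SE) for aggressiveness, with 95% intervals of -0.23 to 0.25 and -0.20 to 0.28. RPSA had 0.033 ± 0.13 and 0.04 ± 0.13 (SE), with the highest signal again in low-high 3.

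Of the paralogs, RPL7L1, a relative of RPL7 found in precursors of the large subunit in human cells, was the 1 of 62 members whose levels of stress response did not overlap, against 0.538% of all probe sets. For aggressiveness no member had levels that did not overlap, against 0.0875%. Its signals were 4767, 4465 and 5494 in the high-high pigs, 4459.9, 4439 and 5005 in the high-low pigs, 4221, 4014 and 3849.6 in the low-high pigs and 4048, 4091 and 3906 in the low-low pigs. Every animal with high stress response lay above every animal with low, and means were 4772 ± 419 (SD) over the 6 animals with high stress response and 4022 ± 133 (SD) over the 6 with low. The log2 fold change was 0.24 ± 0.10 (SE, adjusted p = 0.580), from 0.15 to 0.28 over the alternatives, and for aggressiveness it was 0.042 ± 0.10 (SE). RPL7 itself had -0.053 ± 0.10 (SE) for stress response.

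The other names of this class showed no such separation. RPL22L1, a paralog of RPL22 that can take its place, had -0.092 ± 0.15 (SE) for stress response, and RPL26L1, a paralog of RPL26, had 0.063 ± 0.11 (SE). RPS27L, a paralog of RPS27 that p53 induces, had 0.033 ± 0.11 (SE), and RPL36AL, a paralog of RPL36A, had -0.012 ± 0.11 (SE). RPS19BP1, the partner of RPS19, had -0.091 ± 0.10 (SE) for aggressiveness, with mean signals of 2409 ± 101 (SD) over the 6 animals with high aggressiveness and 2568 ± 159 (SD) over the 6 with low.

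**Figure D4:**
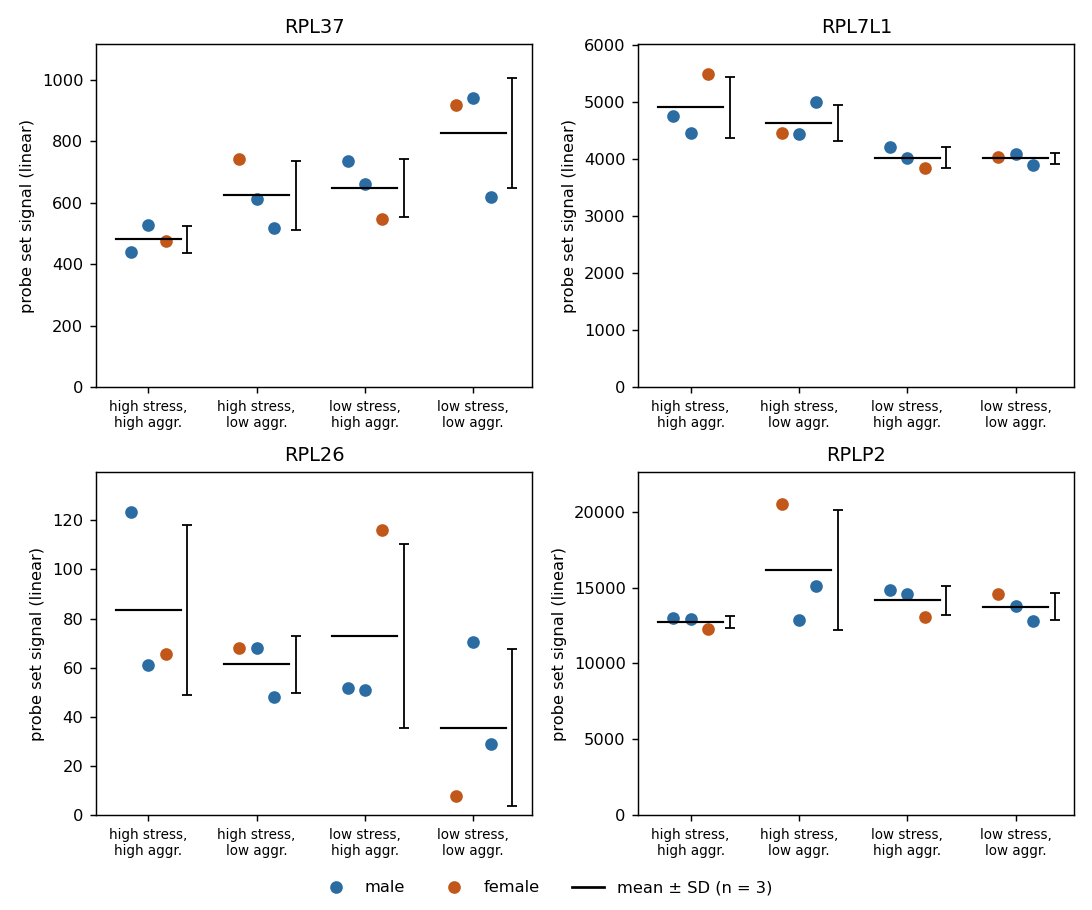
Probe set signal (linear, axes from 0) of RPL37, RPL7L1, RPL26 and RPLP2 in each animal (points, males blue, females orange) with the mean and SD of each group of 3, ordered high-high, high-low, low-high and low-low. RPL7L1 separates high from low stress response, high-high lies below low-low for RPL37, RPL26 lies at signals of 7.72 to 123, and RPLP2 is highest in high-low 1. The share of all probe sets with a split between groups of 3, as for RPL37, was not counted.

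The F test over the 4 groups, with sex in the model, called no member and no probe set (0%). At an unadjusted p under 0.05 it held RPL37 alone (adjusted p = 1.00), against 4.69% of all probe sets. After RPL37 the smallest p of members were those of RPL26, RPL7L1, RPS18, RPLP2 and RPL12, each with an adjusted p of 1.00.

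The interaction asks whether the difference between high and low stress response itself differs between high and low aggressiveness. No member passed at an adjusted p under 0.05 and none at an unadjusted p under 0.05, against 0% and 3.87% of all probe sets. Of the 62 members 3 lay above 0, RPS25, RPL26L1 and RPL7L1, against 49.4% of all probe sets. The median was -0.13 for the members, -0.080 for the other bright probe sets and -0.0045 for all probe sets. All 30 large subunit genes, all 3 of the P stalk and 22 of 23 small subunit genes lay below 0, with medians of -0.17, -0.19 and -0.13. Since these genes moved together from animal to animal, their shared sign does not count as many separate observations. The median stayed below 0 in every alternative run, but it shrank to -0.050 with 16 members above 0 under quantile normalization and to -0.058 with 13 above 0 under median centring. Without high-high 3 and high-low 3 it was -0.036 with 23 above 0, and without these and low-high 3, an omission chosen after the data were seen, -0.025 with 26 above 0. The median SE of a member was 0.22, and for 2 members the 95% interval lay inside 0.5 on either side of 0. None of the liver cell type markers passed the test, and most lists had few measured genes. Of the hepatocyte markers 10 of 12 lay below 0 (median -0.11), of T and NK cell markers 8 of 10 (-0.20), of stellate cell markers 5 of 6 (-0.46) and of sinusoidal endothelial markers 4 of 4 (-0.15). Above 0 lay 3 of 3 erythroid (0.87), 3 of 4 neutrophil (0.20), 3 of 4 cholangiocyte (0.14) and 4 of 6 Kupffer cell markers (0.058). Their part in the interaction of the members was not tested.

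The members with the smallest p of the interaction were RPL12, RPSA, RPL13 and RPS18. RPL12, which sits at the base of the stalk, had signals of 18307, 18550.0 and 18579.9 in the high-high pigs, 20809, 19759.7 and 20019 in the high-low pigs, 20566, 18169 and 21390.2 in the low-high pigs and 19358, 16627 and 16595 in the low-low pigs. The high-low animals lay above all high-high animals, a split whose share over all probe sets was not counted, and 2 of the low-low animals were lowest. The interaction was -0.32 ± 0.20 (SE, adjusted p = 0.999), and with the mean over its 3 probe sets it was 0.044. RPSA, RPL13 and RPS18 had -0.36 ± 0.24, -0.29 ± 0.20 and -0.35 ± 0.25 (SE).

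The 6 pairs of groups share animals, so their values are given side by side only. No member passed at an adjusted p under 0.05 in any of the 6. Over all probe sets the share was 0% for stress response at high aggressiveness, at low aggressiveness, for aggressiveness at low stress response, for both high against both low, and for the crossed pair, and 0.0125% for aggressiveness at high stress response. Stress response at high aggressiveness, high-high against low-high, had 9 of 62 members above 0 (52.9% of all probe sets) and a median of -0.066. Without high-high 3 this was -0.013 with 22 above 0, without low-high 3 -0.029 with 21 above 0, and in males alone -0.00028 with 31 above 0. Stress response at low aggressiveness, high-low against low-low, had 54 above 0 (55.3%) and a median of 0.080, which was -0.0018 under median centring and 0.025 without high-low 3. Aggressiveness at high stress response, high-high against high-low, had 13 above 0 (51%) and a median of -0.046, which was -0.0095 without high-high 3, -0.0059 without high-low 3 and 0.060 without both. Aggressiveness at low stress response, low-high against low-low, had 53 above 0 (51.7%) and a median of 0.096, which was -0.0068 under quantile normalization. Both high against both low, high-high against low-low, had 41 above 0 (55.7%) and a median of 0.042, and the crossed pair, high-low against low-high, had 27 (52.5%) and a median of -0.013. The median of both high against both low was 0.082 without high-high 3, -0.0046 without low-low 2 and -0.022 under median centring. That of the crossed pair was -0.063 without high-low 3 and 0.032 without low-high 3.

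**Figure D5:**
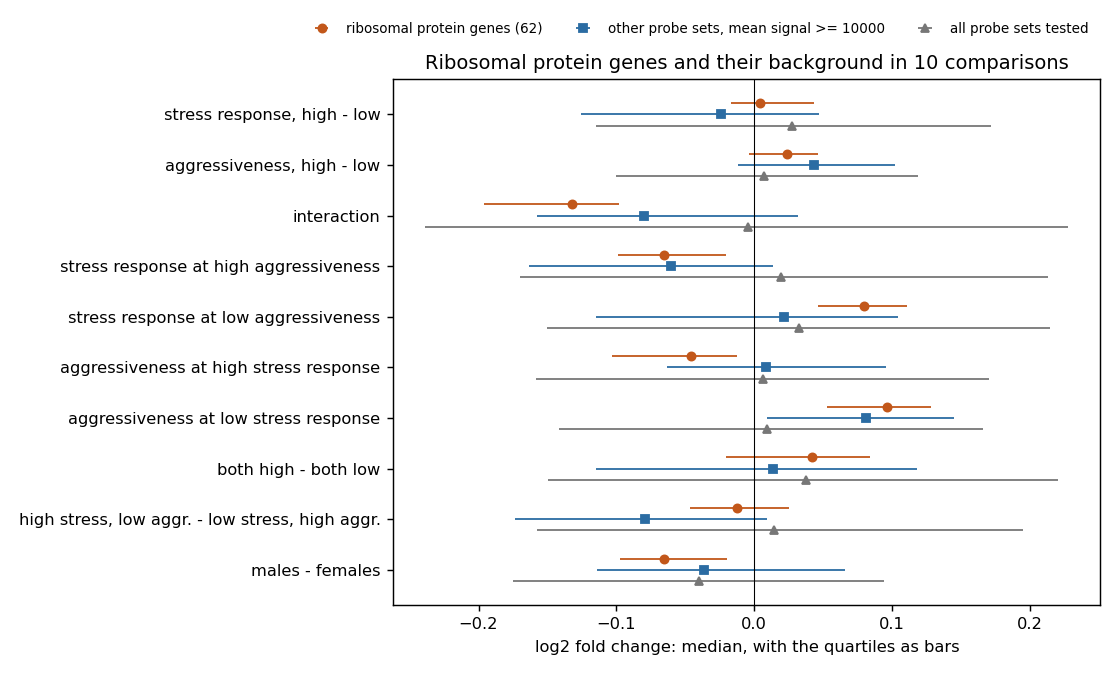
Median log2 fold change (points) with quartiles (bars) of the 62 members, of 423 other probe sets of mean signal 10000 or above, and of all probe sets tested, in 10 comparisons. Member medians run from -0.13 for the interaction to 0.096 for aggressiveness at low stress response; the medians for stress response, aggressiveness, sex and 5 of the 6 pairs change sign under another scaling or with animals left out.

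At an unadjusted p under 0.05, both high against both low held 2 members, RPL37 lower and RPL26 higher, against 5.8% of all probe sets. RPL37 had a log2 fold change of -0.74 ± 0.22 (SE, adjusted p = 0.778), from -0.93 to -0.62 over the alternatives. RPL26 had 1.09 ± 0.45 (SE, adjusted p = 0.832), and 0.53 without low-low 1. The other 5 pairs held 0 members, against 6.13% of all probe sets for stress response at high aggressiveness, 5.12% at low aggressiveness, 3.63% for aggressiveness at high stress response, 3.19% at low stress response and 4.3% for the crossed pair.

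The smallest p within pairs belonged to genes already described. For stress response at high aggressiveness, RPL37 had -0.41 ± 0.22 and RPL7L1 0.28 ± 0.15 (SE), and at low aggressiveness RPL37 had -0.39 ± 0.22 and RPL26 0.77 ± 0.45 (SE). Without high-high 3 the value of RPL7L1 was 0.18, and without low-low 1 that of RPL26 was 0.21. For aggressiveness at high stress response, RPLP2 had -0.32 ± 0.18 and RPS18 -0.29 ± 0.18 (SE), which became -0.12 for RPLP2 without high-low 1 and -0.17 for RPS18 without high-low 3. At low stress response RPL26 had 0.90 ± 0.45 and RPL37 -0.33 ± 0.22 (SE). The value of RPL26 was 0.35 without low-low 1, 0.41 without low-high 3 and 0.11 in males alone, and that of RPL37 was -0.15 without low-high 3. In the crossed pair RPL7L1 had 0.20 ± 0.15 and RPS19BP1 0.16 ± 0.14 (SE).

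Sex was a term of the model, with 8 males and 4 females. No member passed at an adjusted p under 0.05 and none at an unadjusted p under 0.05, against 0.0688% and 5.21% of all probe sets. Of the 62 members, 8 lay above 0, that is higher in males, against 41.8% of all probe sets. The median was -0.065 for the members, -0.040 for all probe sets and -0.037 for the other bright probe sets, and it was 0.0032 under median centring. Without high-high 3 and high-low 3 it was -0.14 with 5 above 0, and without low-high 3 -0.022 with 18 above 0. All 12 hepatocyte markers lay below 0, with a median of -0.14, as did 262 of the 423 other bright probe sets. RPL15, a core protein of the large subunit, had the smallest p, with mean signals of 21526 ± 2185 in males (SD, n = 8) and 24383 ± 1366 in females (SD, n = 4) and a log2 fold change of -0.18 ± 0.12 (SE, adjusted p = 0.942). RPL36AL had -0.15 ± 0.12 (SE).

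A gene with several probe sets gave different values from each. Of the 64 members, 40 had 1 probe set and 24 had several, and 28 further probe sets were kept beside the counted ones. Over the 12 arrays their correlation with the counted probe set of the same gene had a median of 0.13 and ran from -0.26 to 0.76. The 4 with a mean signal of 10000 or above lay between 0.51 and 0.76, and the 24 others had a median of 0.094. RPL12, RPL13A, RPL23, RPL27 and RPL9 had 3 probe sets each, as had RPS18, RPS25 and RPS28. RPL27 had -0.020 ± 0.097 from the counted probe set and 0.044 ± 0.097 (SE) from the other bright one for stress response. A dim probe set of RPL12, with a mean signal of 105, had -0.75 ± 0.29 (SE), against 0.047 ± 0.11 (SE) from the one counted.

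RPL30 and RPS15A, each with 1 probe set, were left out by the filter and not tested. RPL30 signals were 10.4, 38.5 and 52.4 in the high-high pigs, 81.5, 86.3 and 55.4 in the high-low pigs, 17.5, 38.3 and 8.28 in the low-high pigs and 54.4, 67.4 and 12.4 in the low-low pigs. RPS15A signals were 31.5, 55.8 and 2.66 in the high-high pigs, 5.71, 22.2 and 4.09 in the high-low pigs, 23.3, 40.1 and 11.9 in the low-high pigs and 51.1, 59.1 and 31.1 in the low-low pigs. For RPL30 high-low 2 was highest and low-high 3 lowest, and for RPS15A low-low 2 was highest and high-high 3 lowest. How many of all probe sets separate 2 groups of 3 animals was not counted. No difference between groups is therefore read from these dim probe sets. Another 8 probe sets carried several symbols of which 1 was of this form, and they were not counted as members.

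Of 4 listed ribosomal proteins whose names fall outside the rule, 2 were measured. FAU, which encodes a small subunit protein fused to a ubiquitin-like one, had a log2 fold change of 0.027 ± 0.11 (SE) for stress response and -0.0010 ± 0.11 (SE) for aggressiveness. RACK1, a scaffold on the small subunit, had 0.033 ± 0.10 and 0.023 ± 0.10 (SE). The 58 mitochondrial ribosomal protein genes had a median of 0.0074 with 33 above 0 for stress response, which was -0.037 under median centring. For aggressiveness it was -0.059 with 12 above 0, and below 0 in all 5 settings tried for these lists. None passed at an adjusted p under 0.05.

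Biogenesis factors, which assemble ribosomes and stay outside the finished particle, are listed apart. Of 65 biogenesis factors listed, 47 were measured, and for stress response 42 of these lay above 0 with a median of 0.24. None passed at an adjusted p under 0.05, and 10 had an unadjusted p under 0.05, all higher, against 5.03% of all probe sets in that direction. Under quantile normalization the median was 0.22 and under median centring 0.20. It was 0.18 in males alone and 0.12 without high-high 3 and high-low 3, where 5 were higher and 1 lower at an unadjusted p under 0.05. For aggressiveness the median was 0.025, with 32 above 0 and none at an unadjusted p under 0.05, against 3.22% of all probe sets. GRWD1, a histone chaperone of ribosome assembly, had mean signals of 464 ± 43.3 (SD) over the 6 animals with high and 319.8 ± 30.9 (SD) over the 6 with low stress response. The log2 fold change was 0.52 ± 0.11 (SE, adjusted p = 0.523). NOB1, the nuclease that finishes the small subunit RNA, averaged 259 ± 59.5 (SD) at high against 158 ± 29.4 (SD) at low stress response, with a log2 difference of 0.65 ± 0.16 (SE, adjusted p = 0.523). The 7 measured markers of proliferating cells, of 11 listed, also lay above 0 for stress response, with a median of 0.28, and their summed signal ran from 724 to 935 in high-high, 750.2 to 1402 in high-low, 576 to 811 in low-high and 521 to 906 in low-low pigs. Their part in the values of the biogenesis factors was not tested.

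RNA polymerase I transcribes the ribosomal RNA. Of its 12 listed genes and factors, 8 were measured and 7 lay above 0 for stress response, with a median of 0.17, and 2 had an unadjusted p under 0.05, both higher. Over all probe sets 55.7% lay above 0 and 5.03% were higher at that p. Under quantile normalization and under median centring 1 gene had such a p. Without high-high 3 and high-low 3 there were 0, and the median was 0.095. POLR1B, its second-largest subunit, had 0.35 ± 0.14 (SE, adjusted p = 0.574), and TAF1B, of its promoter factor, 0.57 ± 0.23 (SE, adjusted p = 0.577). For aggressiveness the median was 0.00017, with 4 above 0.

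Of 7 elongation factors listed, 6 were measured and 5 lay above 0 for stress response, with a median of 0.078. It was 0.034 under median centring and 0.10 under quantile normalization. At an unadjusted p under 0.05 there were 2, both higher, against 5.03% of all probe sets in that direction, and 2 under quantile normalization. There were 0 under median centring, in males alone and without high-high 3 and high-low 3. EEF1A1, which brings aminoacyl-tRNA to the ribosome, had 0.39 ± 0.16 and EEF1E1, a partner of tRNA synthetases, 0.38 ± 0.16 (SE), and neither passed (adjusted p = 0.572 and 0.580). Of 36 initiation factors listed, 29 were measured, with 19 above 0 and a median of 0.030 for stress response, which was -0.015 under median centring. EIF4A1, the helicase of initiation, had mean signals of 6637 ± 1060.1 (SD) over the 6 animals with high and 4366 ± 1003 (SD) over the 6 with low stress response, with a log2 difference of 0.62 ± 0.17 (SE, adjusted p = 0.523). EIF4B, its cofactor, had -0.39 ± 0.15 (SE, adjusted p = 0.572). For aggressiveness the medians were -0.014 for elongation and -0.029 for initiation factors.

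Regulators and partners of ribosomal proteins were fewer. Of 22 listed genes of mTOR and MYC control, 8 were measured, with 3 above 0 and a median of -0.094 for stress response, and none passed at an adjusted p under 0.05. MXI1, a MAX partner that opposes MYC, had -0.27 ± 0.16 (SE). Of 10 listed chaperones and binding partners, 8 were measured, with 6 above 0 and a median of 0.075 for stress response. BCCIP, which in human cells takes part in making the large subunit, had 0.25 ± 0.11 (SE, adjusted p = 1.00) for aggressiveness. The other mRNAs with a pyrimidine tract at their start, 15 measured of 18, had medians of 0.018 for stress response and -0.026 for aggressiveness. Scaling alternatives were not run for these last 3 lists.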

How the data were processed

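Total RNA of 12 pig livers was hybridised to Affymetrix porcine arrays, 1 array per animal. The authors deposited 1 linear signal intensity per probe set and array. GCOS 1.1.1 is named per the submitters' processing notes; how probe values were summarised and scaled is not given in the sources used here. The mean of each array without the top and bottom 2% was 500.2, so arrays had been brought to one level before deposit. Of 24123 probe sets, 124 controls and the third with the lowest mean log2 value (33.3%) were left out, and 15999 were tested. Values were log2(signal + 16), fitted with limma 3.58.1 (R 4.3.3) with Benjamini-Hochberg adjustment over all probe sets tested. Stress response, aggressiveness and sex came from one additive model (8 residual degrees of freedom). The F test, the interaction and the 6 pairs came from a model of 4 group means and sex (7 degrees of freedom). The fit was tested on simulated data.

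Gene names are those of the platform annotation. It gave 1 symbol for 10099 probe sets, several for 198 and none for 13826; all 64 member symbols equal the RefSeq symbol of their gene ID. The precision is limited by the number of arrays. Groups were taken from the labels, which number no replicates, so replicate numbers only name animals.

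Named members were the 5 higher and 5 lower with the smallest p for each factor, the 6 of the F test, the 4 of the interaction and the 2 of each pair and of sex. RPLP0, RPLP1, RPLP2, RPSA, RPS6, the 5 with the largest SD, those with the most probe sets, all paralogs and those left out by the filter were added. From each other list, the 2 genes with the smallest p for each factor could be named. The members, lists and tests were chosen with earlier results of these data known. Alternatives covered filters, scaling, the added constant, the moderation of variances, array weights, model terms, males alone, the 3' to 5' ratio, the choice of probe set and left-out animals. Figures were drawn with matplotlib 3.10.9.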

Additional observations from a re-analysis of the deposited data

Results flagged for a closer look

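For 28 members and the structural score, the animals with high and with low stress response or aggressiveness were searched for 1 animal standing apart from the other 5 by Dixon's criterion. Of 116 such searches 8 found one, where the criterion is set to give about 1 in 20 by chance. That rate does not hold here, because some members were named for their spread in these data and the searches share animals. No cause was tested.

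At high aggressiveness, low-high 3 stood above the rest for 3 genes. RPL5 was 35350 there, against 26780 to 28870 in the others, RPS3A was 37270, against 29730 to 31340, and RPL9, a large subunit protein, was 36340, against 30250 to 32090. This animal also had the highest score over all structural members. At high aggressiveness, RPS9 was 21960 in low-high 1, against 20010 to 20500 in the others.

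At low aggressiveness, RPLP2 was 20520 in high-low 1, against 12820 to 15090 in the others, and RPS27L was 14300 in high-low 2, against 11020 to 12090. At high stress response, RPL26 was 123.3 in high-high 1, against 47.97 to 68.07 in the others, and its paralog RPL26L1 was 3536 in high-high 3, against 2804 to 3033.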

How the results depend on the processing

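No member passed the adjusted threshold in any of 31 alternatives, 12 of which left out 1 animal. Medians moved by more than the within-group SD in 9 cases. The stress response median was 0.082 in males alone. The interaction median was -0.050 under quantile normalization, -0.058 under median centring, -0.036 without high-high 3 and high-low 3 and -0.025 without these and low-high 3. Stress response at low aggressiveness gave -0.0018 under median centring, aggressiveness at high stress response 0.060 and 0.056 without those 2 and 3 animals, and aggressiveness at low stress response -0.0068 under quantile normalization. No paired analysis was possible because replicate numbers follow accession order. Of 1642 recomputed fold changes of named members 83 changed sign. In males alone these were RPL5 0.015, RPL11 0.025, RPS18 0.051, RPLP1 0.070, RPLP2 -0.056 and RPL26L1 -0.042 for stress response, and RPLP2 0.019 and RPL36AL 0.041 for aggressiveness. With the mean over a gene's probe sets these were RPS18 0.019, RPLP0 -0.080 and RPLP1 0.052 for stress response, and RPS6 -0.020 for aggressiveness, and RPL12 0.044 for the interaction. Without high-high 3 and high-low 3 these were RPL22L1 0.0070, RPLP1 0.0067, RPS6 -0.023 and RPL26L1 -0.011 for stress response, and RPS18 0.018 and RPL26L1 -0.039 for aggressiveness. Without these and low-high 3 (chosen after seeing the data) these were RPL22L1 0.053, RPLP1 0.0058, RPS6 -0.010 and RPL26L1 -0.042 for stress response, and RPLP2 0.067, RPL36AL 0.040 and RPS27L -0.063 for aggressiveness. Under quantile normalization these were RPLP0 -0.0067 and RPL36AL 0.030 for stress response, and RPLP0 -0.0019, RPLP1 -0.023 and RPSA -0.0079 for aggressiveness. Under median centring these were RPLP0 -0.039, RPLP2 -0.015, RPSA -0.011, RPS6 -0.033 and RPS27L -0.011 for stress response, and RPLP1 -0.0060 for aggressiveness. With the 3' to 5' ratio in the model these were RPLP2 -0.013 for stress response, and RPLP1 -0.0025, RPL22L1 -0.0029 and RPL36AL 0.030 for aggressiveness. With array weights these were RPL36AL 0.025 for aggressiveness. With 1 animal left out, log2 fold changes for stress response ran from -0.032 to 0.052 for RPLP0, -0.048 to 0.038 for RPLP1, -0.081 to 0.091 for RPLP2, -0.029 to 0.093 for RPSA, -0.039 to 0.044 for RPS6, -0.0073 to 0.10 for RPL26L1, -0.055 to 0.029 for RPL36AL and -0.020 to 0.069 for RPS27L. With 1 animal left out, log2 fold changes for aggressiveness ran from -0.018 to 0.068 for RPLP1, -0.019 to 0.10 for RPSA, -0.023 to 0.13 for RPL22L1, -0.043 to 0.085 for RPL26L1, -0.051 to 0.027 for RPL36AL and -0.0071 to 0.070 for RPL7L1. The cause of these changes was not tested.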
